A study of Mus musculus with 4 samples.

Results

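The signalling lymphocytic activation molecule (SLAM) family is a set of immunoglobulin-domain receptors of blood cells, and its genes were followed here in long-term haematopoietic stem cells (LT-HSCs) from mice that lack or carry the transcription factor ATF4. The 9 genes were chosen by name: Slamf1, Cd48, Ly9, Slamf6, Slamf7, Cd84, Slamf8 and Slamf9, with Cd244a added. All 9 had a row among the 4167 genes of the deposited table. The ATF4 KO group had 2 libraries and the wild-type (WT) group had 2 libraries, all of polyA RNA from LT-HSCs that were sorted by flow cytometry from bone marrow of tibia and femur. Both genotypes shared the tissue, the sort and a customised Smart-seq2 library preparation, in which full-length cDNA is amplified from few cells. The labels do not name the ATF4 allele, a Cre driver, the age of the mice, the number of mice per library or the surface markers of the sort. They also do not say that libraries 1 and 2 of a genotype came from separate mice, so every p-value below measures the spread between these libraries, which may be technical.

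SLAM receptors sit at the surface of haematopoietic cells and most bind a copy of themselves on a neighbouring cell. Their tails carry tyrosine switch motifs that recruit small SH2 adaptors of the SAP type, which bring in Src-family kinases, or else phosphatases. In mouse bone marrow, surface CD150 (encoded by Slamf1) with no surface CD48 is the classical combination used to recognise long-term stem cells, whereas most multipotent and committed progenitors carry CD48.

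The genes lie in a pair of clusters on chromosome 1 (GRCm38, GENCODE M21 annotation). The larger spans 394 kb and holds 7 of them, and the smaller spans 115 kb and holds Slamf9 and Slamf8. RefSeq (build GRCm38.p6) listed a 300-base promoter, 250 bases before to 50 bases after the start, for 8 of the 9 genes, Ly9 being the gene without one. Each was searched on both strands for the ATF4-C/EBP composite element TGATGNAA, the RUNX letters TGTGGT and the GATA letters GATAA, which do not overlap in the sequences shown. The promoters of Slamf1 and Cd48 are shown because these genes define LT-HSCs at the cell surface, and that of Slamf9 because it held the only ATF4-C/EBP match; capitals mark the matches, and each sequence runs 5′ to 3′ on the strand of its gene, which is the plus strand in each case. Slamf1 is at chr1:171766882-171767181, Cd48 at chr1:171681742-171682041 and Slamf9 at chr1:172475110-172475409.
Slamf1: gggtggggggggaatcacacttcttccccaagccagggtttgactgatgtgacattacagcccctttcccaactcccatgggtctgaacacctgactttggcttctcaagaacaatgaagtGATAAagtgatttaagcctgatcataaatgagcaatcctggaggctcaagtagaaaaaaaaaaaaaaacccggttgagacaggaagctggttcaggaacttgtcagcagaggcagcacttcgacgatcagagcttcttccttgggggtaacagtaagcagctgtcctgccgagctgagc
Cd48: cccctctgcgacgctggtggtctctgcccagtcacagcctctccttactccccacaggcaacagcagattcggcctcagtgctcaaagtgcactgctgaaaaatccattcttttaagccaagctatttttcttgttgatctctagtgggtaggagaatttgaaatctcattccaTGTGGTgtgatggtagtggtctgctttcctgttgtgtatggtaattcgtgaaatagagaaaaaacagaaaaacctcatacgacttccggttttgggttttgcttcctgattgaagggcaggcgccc
Slamf9: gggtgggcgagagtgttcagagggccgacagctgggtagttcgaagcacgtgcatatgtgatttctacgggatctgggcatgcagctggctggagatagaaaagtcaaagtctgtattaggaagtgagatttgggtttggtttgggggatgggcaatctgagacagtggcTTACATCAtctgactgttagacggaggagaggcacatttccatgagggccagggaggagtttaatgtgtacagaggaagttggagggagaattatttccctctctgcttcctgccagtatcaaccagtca
The composite element was present in 1 of the 8 promoters, against 3.97% of 32851 promoters in the RefSeq table. The RUNX letters were present in 2 of 8, those of Cd48 and Cd84, against 16.8% of all promoters, and the GATA letters in 1 of 8, that of Slamf1, against 25.4%. A match is a run of letters and no binding was measured.

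The libraries differed in depth by an extreme margin, and this bears on every comparison of the genotypes. The deposited values are regularised log2 values, in which a library with few reads is pulled towards the mean of the gene over all libraries. The relation among the 4 values of a gene allowed the reads behind them to be recovered for 1795 of the 1928 genes with unequal values, all 9 SLAM family genes among them. The size factors obtained in this way put ATF4 KO 1 at 0.165% and ATF4 KO 2 at 0.171% of WT 1, and WT 2 at 79.0% of WT 1. Over the recovered genes the reads summed to 1040 in ATF4 KO 1 and 1494 in ATF4 KO 2, against 790933 in WT 1 and 639743 in WT 2. The table covers genes matched to chromosomes 1 and 2, so the sums are not whole library depths. They also leave out the 133 genes not recovered. Recovery tried at most 100 reads in an ATF4 KO library, so genes with more are missing from the sums. The ATF4 KO sums are therefore lower than the reads of all genes in the table. The Atf4 gene itself was not analysed here, so its RNA gives no check of the genotypes.

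WT LT-HSCs contained RNA of all 9 SLAM family genes, at levels that spanned a wide range, as shown in the plot of WT levels per kilobase. Levels between genes are given as reads divided by the library's size factor and by the length of the annotated exons, in normalised reads per kb. Cd48, a lipid-anchored receptor that is the ligand of CD244, stood first with 76.8 in WT 1 and 123 in WT 2, a mean of 99.9 ± 32.8 (SD, n = 2). That mean was at or above 98.9% of the 1026 protein-coding genes whose reads were recovered.

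**Figure D1:**
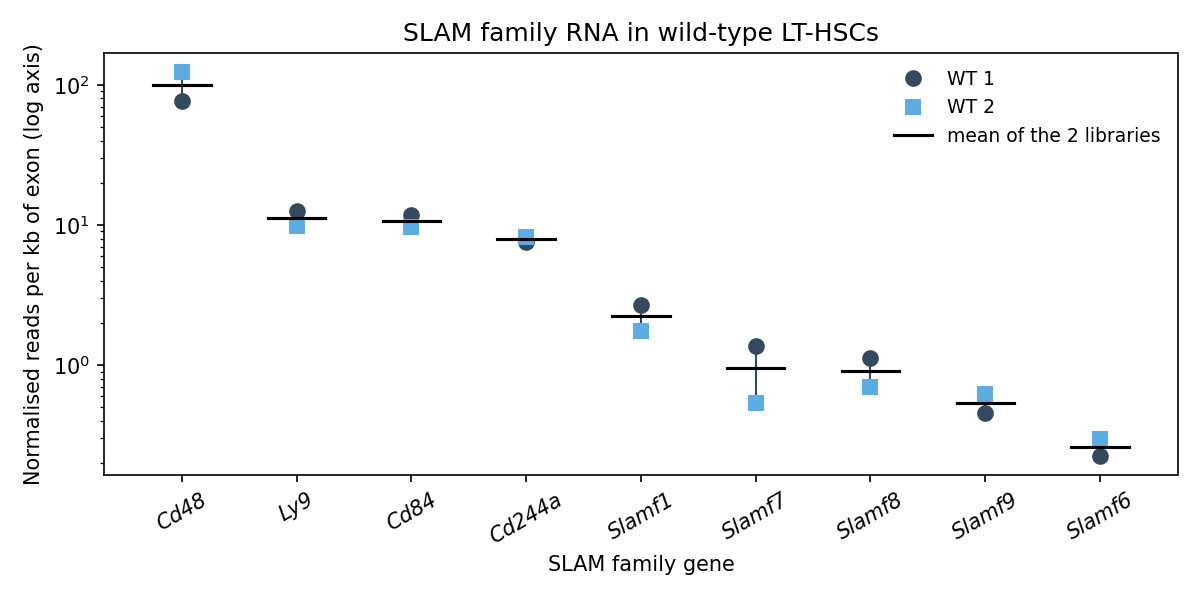
Level of each SLAM family gene in the 2 WT libraries, as normalised reads per kb of annotated exon on a log axis, with the mean of the 2 libraries as a bar. Cd48 lies far above the other 8 genes, and Slamf1 comes after Ly9, Cd84 and Cd244a.

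A group of 3 genes followed well below Cd48. Ly9, which encodes the self-binding receptor CD229, averaged 11.3 ± 1.96 normalised reads per kb, Cd84, another self-binding receptor, 10.7 ± 1.42, and Cd244a, the receptor for CD48, 7.89 ± 0.378 (SD, n = 2 each). The WT values of Ly9 and Cd84 overlapped, so these neighbours were not separated. Both lay above Cd244a in each WT library.

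Slamf1, the self-binding receptor CD150, came next, with 2.71 normalised reads per kb in WT 1 and 1.76 in WT 2, a mean of 2.23 ± 0.669 (SD, n = 2). Its mean was at or above 53.8% of the protein-coding genes recovered. Cd48 RNA thus exceeded Slamf1 RNA per kb by 28.4-fold in WT 1 and by 69.9-fold in WT 2, and by 5.48-fold and 13.5-fold in reads without the correction for length. The direction of this ratio is opposite to the surface pattern by which LT-HSCs are known, although RNA and surface protein are different measures. Other LT-HSC markers chosen for a check, such as Procr, Kit, Ly6a, Hlf, Mecom and Fgd5, were not analysed here, and Cd34, which marks short-term stem cells and progenitors in adult mice, stood at 119 normalised reads per kb in WT.

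The remaining 4 genes were low. Slamf7, the self-binding receptor CRACC, averaged 0.951 ± 0.589 normalised reads per kb and Slamf8 0.911 ± 0.298, with overlapping WT values (SD, n = 2 each). Slamf9 averaged 0.539 ± 0.117 and Slamf6, the self-binding receptor Ly108, 0.261 ± 0.050 (SD, n = 2 each). Slamf8 and Slamf9 encode members with short tails that lack the tyrosine switch motifs. With the length of the longest transcript in place of all exons, Cd84 came before Ly9 and Slamf8 before Slamf7, and every other position was kept.

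In numbers of reads, the family summed to 5939 in WT 1 and 5135 in WT 2. Cd48 supplied 33.4% of these reads in WT 1 and 48.9% in WT 2, and Slamf1 6.10% and 3.62%. Cd84 supplied 26.9% and 20.4%, while Slamf9 gave 13 and 14 reads. The WT values therefore rest on 1047 to 2511 reads in each library for Cd48 and Cd84 and on 13 to 55 in each library for Slamf6 and Slamf9.

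The WT libraries did not give the same SLAM pattern, as shown in the plot of WT 2 over WT 1. Cd48 had 1.60 times the normalised reads in WT 2 as in WT 1. Among 157 protein-coding genes within a factor of 2 of its WT level, 0 differed more between the WT libraries, and the largest difference among them was 1.40-fold. The pair of WT libraries thus differed more in Cd48 than in any recovered gene of like level.

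Slamf7 went the other way, with 136 reads in WT 1 and 42 in WT 2, a ratio of 0.391 after normalisation. A larger WT difference was found in 4.76% of 147 genes of similar level. Slamf1 was also lower in WT 2, with 362 reads in WT 1 and 186 in WT 2 and a ratio of 0.651, and 6.28% of 223 genes of similar level differed more. Cd244a, by contrast, differed by 1.07-fold, less than 71.2% of 281 genes of similar level. Ly9, Cd84 and Slamf8 were lower in WT 2, with ratios of 0.781, 0.829 and 0.625, and Slamf6 and Slamf9 higher, with ratios of 1.31 and 1.36. With 1 library on each side these ratios are descriptions of the libraries.

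**Figure D2:**
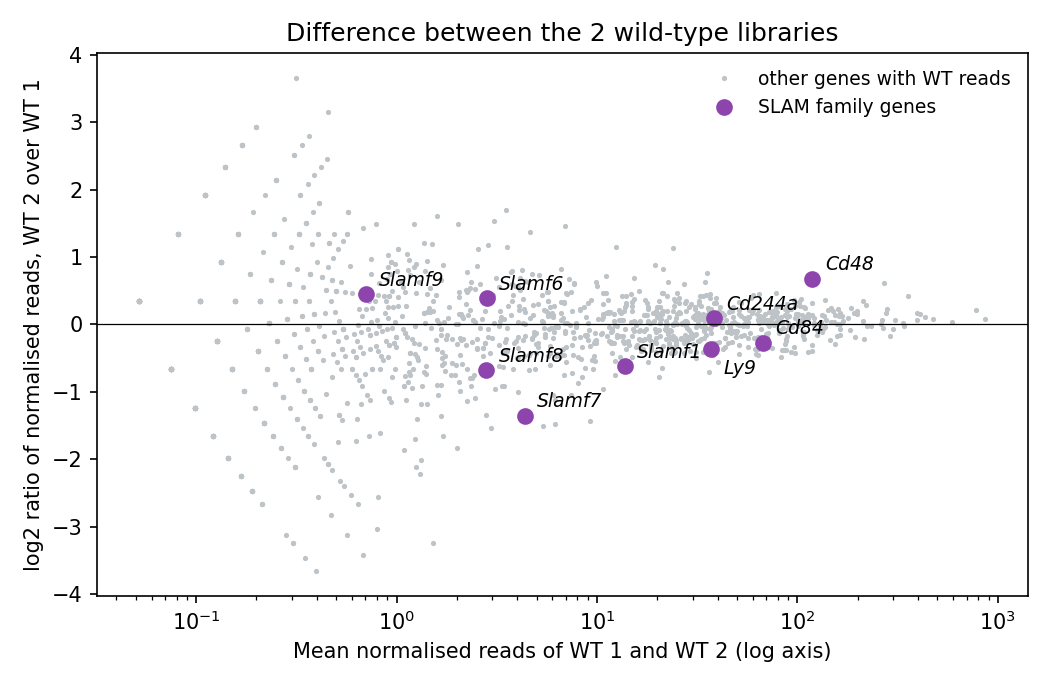
Log2 ratio of normalised reads in WT 2 over WT 1 against their mean on a log axis, for genes with reads in both WT libraries (grey) and the 9 SLAM family genes (purple). Cd48 lies above and Slamf7 and Slamf1 lie towards the lower edge of the genes at their level.

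Markers of other cell types that lie on these chromosomes also differed between the WT libraries. The 5 T cell genes in the table (Cd28, Icos, Ctla4, Cd247 and Xcl1) summed to 13.2 normalised reads in WT 1 and 7.93 in WT 2, and 3 B cell genes (Cr2, Fcrla and Fcmr) to 3.36 and 1.52. The 3 myeloid genes with recovered reads (Fcgr2b, Fcgr4 and Cxcr2) summed to 28.8 normalised reads in WT 1 and 38.4 in WT 2. Cd3e, Cd3d and Cd79a, which define lymphoid types, were not analysed here. Slamf7 and Slamf1 thus moved in the same direction as the lymphoid sums and Cd48 in the same direction as the myeloid sum, and the part of these cells in the SLAM values was not tested.

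In the ATF4 KO libraries, reads of the SLAM family were nearly absent. ATF4 KO 1 had 4 reads over all 9 genes and ATF4 KO 2 had 7. The 5 genes Cd244a, Slamf1, Slamf7, Slamf8 and Slamf9 had 0 reads in both ATF4 KO libraries, as did 56.5% of the 1199 genes tested. The question is then whether these numbers are below what such shallow libraries would give for a cell with the WT amount of each RNA. The expected number was the mean normalised WT level times the summed ATF4 KO size factors.

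Over both ATF4 KO libraries the family gave 11 reads, against 20.9 expected from WT, or 0.525 times that number (95% interval by the exact Poisson method, 0.262 to 0.940). Protein-coding genes of similar WT level also fell short of or exceeded their expected reads, and with the expected reads of each SLAM gene scaled by that yield the ratio was 0.710, with an interval of 0.354 to 1.27. The intervals cover counting error only, and that of the scaled ratio includes 1. The yield was taken over recovered genes only, and recovery tried at most 100 reads in an ATF4 KO library. Leaving out genes with more reads lowers the yield and raises the scaled ratio. In bulk libraries, fewer cells that carry an RNA and less of it per cell cannot be told apart.

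**Figure D3:**
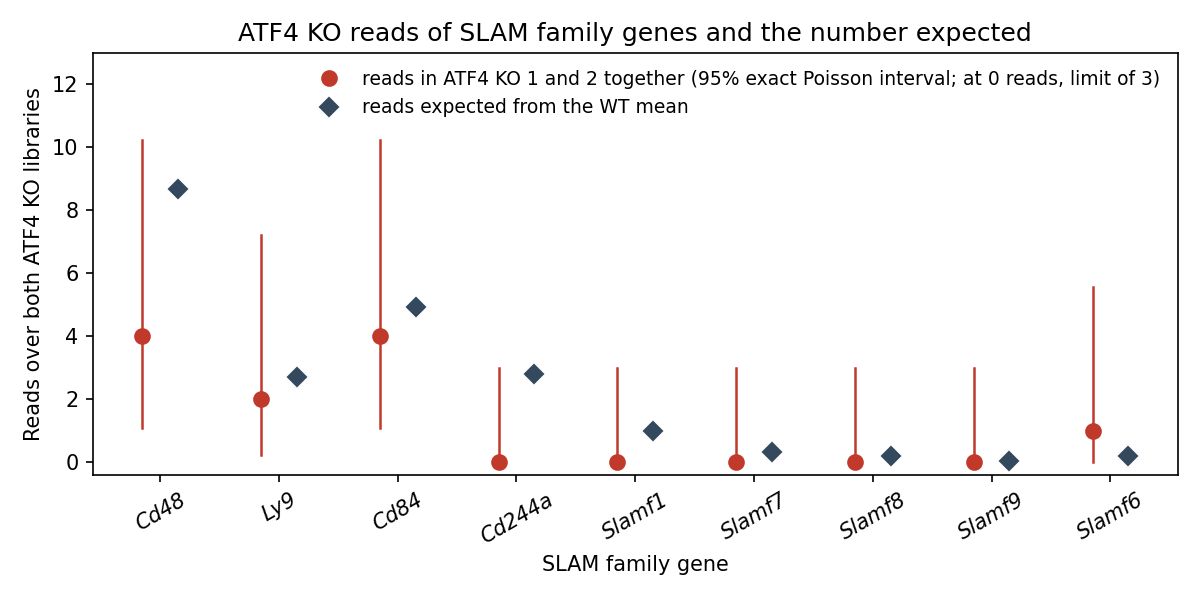
Reads of each SLAM family gene over both ATF4 KO libraries (red, with the 95% exact Poisson interval, or the limit of 3 reads where none was found) beside the number expected from the WT mean (dark diamonds). The expected number lies inside the interval for all 9 genes.

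Gene by gene, the expected number was within the counting interval for each SLAM receptor. Cd48 had 2 reads in ATF4 KO 1 and 2 in ATF4 KO 2, against 1983 in WT 1 and 2511 in WT 2. The pair of ATF4 KO libraries gave 4 of 8.69 expected reads, a ratio of 0.460 (0.125 to 1.18), or 0.599 with WT 1 alone and 0.374 with WT 2 alone as the base. At the yield of genes of similar level, 0.732 over 157 genes with 28 unrecovered genes left out, the ratio was 0.629 (0.171 to 1.61). Leaving out genes with many ATF4 KO reads makes this yield lower and this ratio higher. A Cd48 level in ATF4 KO cells equal to that in WT cells is inside these intervals, and so is a several-fold lower level.

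Cd84 had 0 reads in ATF4 KO 1 and 4 in ATF4 KO 2, against 1600 in WT 1 and 1047 in WT 2, and 4.92 were expected (ratio 0.812, 0.221 to 2.08). Ly9 had 2 and 0 reads in ATF4 KO 1 and 2, against 910 and 561 in WT 1 and 2, with 2.73 expected (ratio 0.733, 0.0888 to 2.65). The ATF4 KO reads of each of these genes came from a single library. For comparison, 27.6% of genes at the WT level of Cd84 and 47.2% of those at the level of Ly9 had 0 reads in both ATF4 KO libraries.

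Cd244a was the highest gene of the family with no ATF4 KO read. It had 807 reads in WT 1 and 682 in WT 2, and 2.81 reads were expected over the ATF4 KO pair. A count of 0 allows up to 3 reads, which is 1.07 times the expected number, so 0 reads does not separate ATF4 KO from WT at this depth. Of 294 protein-coding genes at its WT level, 46.3% also had 0 reads in both ATF4 KO libraries. Ly9 and Cd244a lie on opposite strands and overlap along the chromosome, but their annotated exons share 0 bases.

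Slamf1, with no ATF4 KO read (0 in each library) against 362 in WT 1 and 186 in WT 2, had 1.01 expected reads. The limit of 3 reads is 2.98 times that number, and 72.9% of 229 genes at its level had 0 reads in both. Expected reads were 0.318 for Slamf7, 0.205 for Slamf8 and 0.0517 for Slamf9, so 0 reads carries almost no information on them. Slamf6 had 0 reads in ATF4 KO 1 and 1 in ATF4 KO 2, against 53 in WT 1 and 55 in WT 2, and 0.206 were expected, a ratio of 4.85 with an interval of 0.123 to 27.0. An antisense gene overlaps Slamf6 and another overlaps Slamf7, and since the strand setting of the counting is not given in the sources used here, their reads may include antisense transcripts.

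The deposited log2 values were compared by limma's moderated test over the 1199 genes that reached a log2 value of 1 in 2 or more libraries, with Benjamini-Hochberg adjustment. All 9 SLAM family genes passed this filter. The test called 3 of them at an adjusted p under 0.05, 2 lower and 1 higher in ATF4 KO. Among all tested genes 47% were called, 22.4% as lower and 24.6% as higher, so the share of the SLAM family, 33.3%, was not above that of all genes. The median difference, ATF4 KO minus WT, was -0.82 on the log2 scale for the 9 genes and 0.02 for all tested genes. These medians were not matched for WT level, which with the transform sets the difference of a gene without ATF4 KO reads. They therefore do not show a change of the family. The count of SLAM calls was not stable: it was 7 without ATF4 KO 1, 5 without any single 1 of the other libraries, and 1 without a trend of the prior variance on the level.

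**Figure D4:**
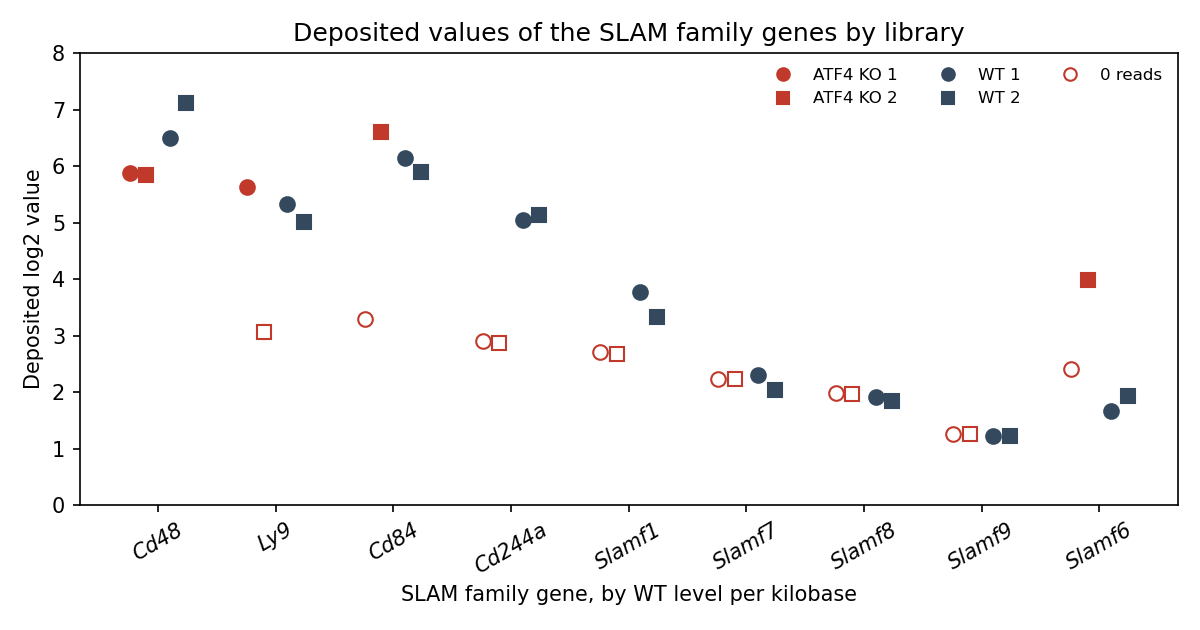
Deposited log2 values of the 9 SLAM family genes in ATF4 KO 1, ATF4 KO 2 (red), WT 1 and WT 2 (dark), in order of the WT level per kb. Open symbols are libraries with 0 reads of that gene, whose height is set by the transform, and filled ATF4 KO symbols rest on 1 to 4 reads.

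Cd244a had the largest difference in the family. Its log2 values were 2.90 and 2.86 in ATF4 KO 1 and 2, against 5.05 and 5.13 in WT 1 and 2, a difference of -2.21 ± 0.106 (SE) with a limma adjusted p of 0.00231. Both ATF4 KO values lay below both WT values, and Cd244a was called under each change of filter, trend, block and library tried (limma adjusted p of 7.94e-06 to 0.0236). The ATF4 KO values come from 0 reads, and their close agreement follows from the transform, which gives a library without reads a value set by the mean of the gene and the size factor.

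The same holds for Slamf1, whose log2 values were 2.70 and 2.67 in ATF4 KO, against 3.76 and 3.33 in WT. The difference was -0.86 ± 0.183 (SE), with a limma adjusted p of 0.0424. Without a trend of the prior variance on the level, limma's adjusted p for Slamf1 was 0.10, and the call was lost. With the replicate number as a block it was 0.0541, and the call was lost too. It was 0.0168 without a filter and 0.0465 with a value of at least 3 in 2 libraries. Slamf9 was called higher, at 1.25 and 1.25 in ATF4 KO against 1.22 and 1.22 in WT, a difference of 0.03 ± 0.00115 (SE) with a limma adjusted p of 0.00216, or 0.180 without that trend and 4.58e-06 to 0.180 over all alternative fits. The higher value of Slamf9 in ATF4 KO stands on 0 reads in ATF4 KO, against 13 and 14 in WT. With 0.0517 ATF4 KO reads expected, the reads give no direction, and the sign follows from the transform.

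Cd48 was not called. Its log2 values were 5.88 and 5.85 in ATF4 KO, against 6.49 and 7.11 in WT, a difference of -0.94 ± 0.445 (SE) with a limma adjusted p of 0.198. Over the alternative fits the limma adjusted p ran between 0.0335, without ATF4 KO 1, where Cd48 was called, and 0.912, without WT 2. The groups did not overlap, and the spread between WT libraries, an SD of 0.44, was the larger part of the error. Groups with both ATF4 KO values below both WT values were found for 3 SLAM genes (Cd48, Cd244a and Slamf1) and for 40.7% of all tested genes. The reverse held for Slamf6, Slamf8 and Slamf9 and for 40.5% of tested genes.

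The other genes were not called. Cd84 had log2 values of 3.30 and 6.59 in ATF4 KO, against 6.14 and 5.89 in WT, and Ly9 had 5.62 and 3.06 in ATF4 KO, against 5.32 and 5.0 in WT. For both genes the groups overlapped, since the ATF4 KO library with reads lay above WT and the one without lay below. Their differences were -1.07 ± 1.40 and -0.82 ± 1.09 (SE), with limma adjusted p of 0.559 and 0.564. The sign of both turned when the ATF4 KO library without reads was left out, to 0.58 for Cd84, which was then called higher (limma adjusted p = 0.0228), and to 0.46 for Ly9, which was not called (limma adjusted p = 0.0892). When the ATF4 KO library with reads was left out instead, both were called lower, at -2.72 for Cd84 and -2.10 for Ly9.

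Slamf6 had log2 values of 2.42 and 3.99 in ATF4 KO, against 1.67 and 1.93 in WT, a difference of 1.40 ± 0.694 (SE; limma adjusted p = 0.221). The higher of its ATF4 KO values rests on 1 read. With that library left out the difference was 0.62 (limma adjusted p = 0.0138), and without ATF4 KO 1 it was 2.19 (limma adjusted p = 0.000476), so Slamf6 was called higher in both fits. Slamf8 differed by 0.10 ± 0.0274 (limma adjusted p = 0.0812) and Slamf7 by 0.06 ± 0.110 (limma adjusted p = 0.691), both with 0 reads in ATF4 KO. Slamf7 was called in opposite directions with 1 WT library left out, at -0.077 without WT 2 (limma adjusted p = 0.00633) and at 0.19 without WT 1 (limma adjusted p = 0.000231). Slamf8 was called higher in the fit without a filter on low values (limma adjusted p = 0.0378). It was also called higher without either WT library, at 0.13 without WT 1 and 0.065 without WT 2.

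Of 16 genes chosen as SLAM signalling partners, 5 were in the table and 4 were tested. One was called, Sh2d1b1, which encodes the adaptor EAT-2, with a difference of 0.06 (limma adjusted p = 0.0108) that again stands on 0 ATF4 KO reads, against 38 in WT 1 and 16 in WT 2. Ptprc, the phosphatase CD45 that activates Src-family kinases, had 0 and 22 reads in ATF4 KO 1 and 2, against 5013 and 3424 in WT 1 and 2, and 15.7 were expected over the ATF4 KO pair. Inpp5d, the lipid phosphatase SHIP1 recruited to SLAM tails, had 3 and 0 reads in ATF4 KO, against 2990 and 2184 in WT, and gave 0.310 of the 9.69 reads expected (0.0639 to 0.905). That ratio was not scaled by yield. Genes of similar WT level to Cd48, whose level was near that of Inpp5d, had a yield of 0.732. Prkcq, a protein kinase C that acts downstream of SLAM receptors in T cells, had 1 and 0 reads in ATF4 KO, against 1140 and 793 in WT. Neither Ptprc, Inpp5d nor Prkcq was called (limma adjusted p of 0.661, 0.275 and 0.194), and Sh2d1b2 was listed at 0 in every library.

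The genes whose values were most like those of Slamf1, by Euclidean distance over the 4 log2 values, were Dyrk3 (0.134), Fam20b (0.197) and Tram2 (0.202). All 3 had 0 reads in both ATF4 KO libraries and 209 to 380 reads in each WT library. Those most like Cd48 were Adss (0.362), Commd3 (0.372) and Mff (0.427), and each of these had 2 reads in ATF4 KO 1 and 2 in ATF4 KO 2, as Cd48 had. The WT 2 values of these 3 genes, 6.72 to 6.82, lay below the 7.11 of Cd48.

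Beside the larger cluster, the nearest tested genes were Alyref2, with no ATF4 KO read (0 in each library) against 203 in WT 1 and 142 in WT 2, and Vangl2, with log2 values of 8.27 and 12.82 in ATF4 KO, against 8.30 and 8.30 in WT. Beside the smaller cluster, Pigm had no ATF4 KO read either (0 in each library), against 202 in WT 1 and 221 in WT 2, and Dusp23 had 0 and 2 reads in ATF4 KO, against 644 and 482 in WT.

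Markers of other cell types in the ATF4 KO libraries were at 0 reads for the 5 T cell genes and the 3 B cell genes. Only 0.0347 to 0.249 reads were expected over the ATF4 KO pair per T cell gene. For the B cell genes 0.0055 to 0.149 were expected, so 0 reads carries almost no information on either cell type. The 2 NK cell genes (Sh2d1b1 and the family member Cd244a) also had 0 ATF4 KO reads. So did the mast cell gene Fcer1a, the erythroid gene Ackr1 and the myeloid genes Fcgr2b, Fcgr4 and Cxcr2. Expected reads for these NK, mast, erythroid and myeloid genes ran from 0.098 for Sh2d1b1 to 2.81 for Cd244a. A count of 0 allows up to 3 reads, so it does not separate ATF4 KO from WT for any of them. Cd34 had 9 and 8 reads in ATF4 KO, against 18288 and 15275 in WT. Over the ATF4 KO pair 63.3 reads of Cd34 were expected (ratio 0.268, 0.156 to 0.430). Fcgr3 had 2 and 0 against 627 and 665, with 2.47 expected (ratio 0.809, 0.0980 to 2.92). The megakaryocyte gene Selp had 1 and 0 against 1533 and 1059, with 4.84 expected (ratio 0.207, 0.00523 to 1.15). These ratios were not scaled by yield, and the intervals cover counting error only. Fcer1g, a myeloid gene whose reads were not recovered, had high values in ATF4 KO. It stood at 14.3 and 13.7 in ATF4 KO, against 10.9 and 10.9 in WT (limma adjusted p = 0.0564). The part of myeloid RNA in the SLAM values of the ATF4 KO libraries was not tested.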

How the data were processed

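All 4 polyA RNA libraries, of LT-HSCs, were analysed, 2 ATF4 KO and 2 WT, grouped by the genotype label. Per the submitters' processing notes, HISAT2 2.2.1, featureCounts, DESeq2 and the GRCm38 build were used; their settings and the strand of the counting are not given in the sources used here. The authors deposited 1 table of log2 values per gene and library. The deposited values had the form of a regularised log, a ridge fit with a weight of 0.164, which no label states. It held 4167 complete genes (an incomplete last line was left out), 2239 of them at 0 throughout; 98.8% of symbols matched GENCODE M21, 3388 on chromosome 1 and 729 on chromosome 2. The ridge fit was inverted to whole reads, accepted where all 4 values were met within 1e-06 log2. WT reads came out within 0.01 of a whole number for 99.9% of the 1795 recovered genes. Another 133 genes were not recovered, and 2 recovered genes lay farther than 0.01 from whole WT reads, where neighbouring whole numbers met the values. In 1399 genes both ATF4 KO libraries had 0 reads. A library without reads gets a value fixed by the transform, so limma's spread for such genes is too small. The reads and limma steps were tested on simulated data. The values simulated for limma had the same spread in all libraries and none was fixed by the transform. They therefore do not show how limma performs on the ATF4 KO values here.

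limma 3.58.1 in R 4.3.3 (robust, prior variance following the level, no block) was fitted to the deposited log2 values of all 1199 genes passing the filter, since the values are no counts. With 2 libraries a genotype, an exact two-sided permutation test cannot give a p below 0.333, so none was used. Reads expected in ATF4 KO are the mean normalised WT reads times the summed ATF4 KO size factors; intervals are exact Poisson, cover counting error only and treat amplified reads as independent. A count of 0 allows 3 reads. Yield is the ratio of observed to expected ATF4 KO reads over recovered protein-coding genes within a factor of 2 of a gene's WT level. WT 1 and WT 2 differed by more than counting noise (chi-square per gene with 1 degree of freedom, mean 9.81 and median 3.25), so they are not 1 library deposited again; whether they are separate biological samples is not shown by this. The SLAM genes, partner list and marker lists were chosen with earlier results of these data known. Genes named are the 9 SLAM genes, list genes in the table (a few of which are not reported here), the 3 tested genes nearest to Slamf1 and to Cd48 in the 4 log2 values, and the nearest tested gene on either side of each cluster. Alternatives changed the filter, the trend, a replicate block, the libraries, the exon length and the yield.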

Additional observations from a re-analysis of the deposited data

How the results depend on the processing

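The number of genes called was 563 of 1199 in the fit used above, 295 higher and 268 lower in ATF4 KO. It was 1315 without a filter (1037 higher, 278 lower), 255 with a value of at least 3 in 2 libraries (15 higher, 240 lower), 291 without a trend of the prior variance (28 higher, 263 lower), and 634 to 881 with 1 library left out, the highest counts being 881 without ATF4 KO 1 and 862 without ATF4 KO 2. SLAM family calls were 3 in the fit used above, 4 without a filter, 2 with a value of at least 3, 1 without a trend (Cd244a) and 5 to 7 with 1 library left out. Partner calls were 1, with 0 at a value of at least 3 or without a trend, where the only called gene had fallen below the filter or lost its call, and 1 to 4 with 1 library left out, 4 without either ATF4 KO library. Leaving out a library assumes that the lone one varies like the other genotype. With the replicate number as a block, 510 genes were called, 2 SLAM genes and 1 partner, and Slamf1 had an adjusted p of 0.0541. Same-numbered libraries deviated with a correlation of -0.08 over genes. In 56.5% of tested genes both ATF4 KO libraries had 0 reads, and their difference is then set by the transform. Over the tested genes with an ATF4 KO read the correlation was -0.09. Neither correlation shows that the numbers pair the libraries, and with 2 libraries a genotype neither can exclude it. The differences of 3 SLAM genes changed sign with 1 library left out: Ly9 ranged over -2.10 (called, without ATF4 KO 1) to 0.46 (not called, without ATF4 KO 2), Cd84 over -2.72 (called, without ATF4 KO 2) to 0.58 (called, without ATF4 KO 1), and Slamf7 over -0.077 (called, without WT 2) to 0.19 (called, without WT 1). The cause was not tested. The ratio of observed to expected ATF4 KO reads of the family was 0.503 to 0.550 with 1 WT library as the base.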
